A study of Ovis aries with 6 samples.

Results

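The ubiquitin and proteasome genes of the sheep array were compared between cultured cells labelled as corneal epithelial cells and as epidermal stem cells from skin. A gene probe was included if its description named ubiquitin, the proteasome, a cullin, an F-box or SUMO, or if its gene name began with the usual symbols of proteasome core and cap subunits, E2 enzymes or ubiquitin-specific proteases. Entries for the respiratory ubiquinol and ubiquitin-cytochrome proteins were left out, and 1 further probe was set aside by the rule. This gave 57 of the 15008 gene probes, which stand for 50 of 14514 genes or unnamed transcripts. The description alone brought in 49 probes, the name alone 1, and both 7. A sheep RefSeq symbol or the array's own protein name could be given to 47 of the 50 genes.

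Ovis aries RNA came from 3 samples of each kind, and the series' design text calls all of them cell lines. Epidermal stem cells are, by name, the source of the skin's keratinocytes, and corneal epithelial cells cover the surface of the eye. No treatment that differs between the groups and no age of the animals is stated, and adherent cells of both kinds were detached with trypsin before RNA extraction. Each sample had 1 array read in 1 colour (Cy3), so 6 arrays carry every value, and whether the samples of a kind came from different animals is not stated in the labels.

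Ubiquitin is a small protein that is attached to other proteins as a tag. An E1 enzyme activates it, an E2 enzyme carries it, and an E3 ligase, often built on a cullin scaffold with an F-box protein as the part that recognises the substrate, places it. Chains of ubiquitin send many proteins to the 26S proteasome, a barrel-shaped protease (the 20S core) closed by 19S caps that bind, unfold and deubiquitinate the substrate. Deubiquitinases take the tag off, and related modifiers such as SUMO and UFM1 use enzyme cascades of their own. Epithelia renew constantly and use this system to turn over cell cycle regulators, transcription factors and junction proteins.

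A level here is the log2 of the processed signal minus the 75th percentile of its array, so 0 is the level of that percentile, and a change is the corneal minus the epidermal mean. Levels are compared only within a probe. All probes are 60 bases long. The sequences below belong to the probes on which the results turn, written 5′ to 3′ as the array files hold them. The first 5 show where the array reads 1 transcript through overlapping probes: capitals mark the 39 bases that the PSMB7 probes have in common and the 40 bases common to the UBE2D2 probes, so probes of 1 gene are not independent measurements.
PSMB7 probe 1: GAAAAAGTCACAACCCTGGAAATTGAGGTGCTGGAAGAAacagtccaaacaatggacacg
PSMB7 probe 2: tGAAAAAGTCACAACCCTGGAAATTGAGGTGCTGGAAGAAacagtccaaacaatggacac
PSMB7 probe 3: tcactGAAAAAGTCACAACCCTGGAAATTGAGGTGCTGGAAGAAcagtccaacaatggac
UBE2D2 probe 1: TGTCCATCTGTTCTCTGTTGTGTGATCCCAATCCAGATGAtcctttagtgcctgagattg
UBE2D2 probe 2: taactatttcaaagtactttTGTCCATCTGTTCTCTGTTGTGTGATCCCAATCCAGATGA

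The next 4 are the probe of the core gene with the largest called fall (PSMB8), that of the member with the largest called fall (UBLCP1), and those of both unnamed transcripts that rose. In the unnamed protease probe, capitals mark the 32 bases covered by runs of at least 14 bases, on either strand, that also occur in probes of other genes.
PSMB8: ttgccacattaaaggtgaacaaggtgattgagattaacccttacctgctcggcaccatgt
UBLCP1: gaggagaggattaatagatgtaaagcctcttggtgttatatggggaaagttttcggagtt
TC62772 (ubiquitin carrier protein): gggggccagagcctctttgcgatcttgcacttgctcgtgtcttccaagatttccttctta
TC74925 (ubiquitin-specific protease): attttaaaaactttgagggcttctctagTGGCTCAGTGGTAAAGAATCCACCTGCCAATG

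The arrays differed in brightness. The share of gene spots well above background was 80.2% ± 2.36 (SD, n = 3) on the epidermal and 74.1% ± 1.56 (SD, n = 3) on the corneal arrays (p = 0.1 in an exact permutation test, two-sided, which cannot give less with 3 arrays a group). All 6 arrays lay on slide 1, the epidermal ones in row 1 and the corneal ones in row 2, so slide row and cell kind cannot be told apart. Of the epithelial markers, KRT19 and both TP63 probes were not well above background on any array, and KRT14 was so on 2 epidermal arrays alone. KRT5, KRT12, KRT3 and CDH1 were not analysed here. KRT15 passed that limit on 3 epidermal arrays and on 1 of the corneal ones, and its change of -0.14 ± 0.13 did not pass (limma adjusted p = 0.401). PAX6, the eye and corneal transcription factor, was well above background on every array and rose in corneal cells by 0.30 ± 0.07 (limma adjusted p = 0.0132). The fibroblast-type genes VIM and DCN were bright on every array, with brightest-probe levels between 7.58 and 8.74. The mean level of the 6 fibroblast-type genes tested ran from 4.25 to 4.48 on the epidermal and from 3.22 to 3.38 on the corneal arrays. POSTN, not well above background on any corneal array, carries that gap: without it the mean of the other 5 genes ran from 5.18 to 5.46 on the epidermal and from 5.39 to 5.43 on the corneal arrays, which overlap. Of these 6 genes 1 was higher, 3 were lower and 2 were not called. DCN was not called by its brightest probe. Its other probe read 7.87 to 7.93 on the epidermal and 7.46 to 7.48 on the corneal arrays. CD14, the immune marker measured, was lower by 0.31 ± 0.04 (SE) in corneal cells, and endothelial markers were not analysed here. The kinds are named here as the labels name them. With KRT14, KRT19 and TP63 mostly at background and VIM and DCN bright on every array, these markers do not bear out the epithelial names. PAX6 was measured in both kinds, with a mean of -2.66 on the epidermal and -2.36 on the corneal arrays. The part of cell type makeup in the results was not tested.

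Of the 50 genes, 48 had a probe well above background on at least 3 arrays and were tested. Between the kinds, 30 of the 48 (62.5%) passed limma's test at an adjusted p under 0.05, beside 59.5% of all 11437 genes and transcripts tested. Higher in corneal cells were 11 members (22.9%, beside 26.4% overall), and lower were 19 (39.6%, beside 33.1% overall). These shares are near the background, so the frequency of calls does not set the ubiquitin and proteasome genes apart. Most other features are unnamed probes that each stand for themselves, whereas a member gene is read by its brightest probe. The effect of that difference on these comparisons was not tested. The sizes were small. No member reached a 2-fold change in limma's fit, whereas 3.37% of all features were called at least 2-fold higher and 4.07% at least 2-fold lower, and 31 members had an unadjusted p under 0.05 (64% overall). The members' median size of change, without sign, was 0.17 and that of all features 0.24 on the log2 scale, and 5 of 48 members (10.4%) against 23.0% of all features moved by 0.5 or more. Members also varied less within a kind, with a median SD of 0.049 against 0.065 for all features. Whether features of like level or spread moved as little was not tested. Arrays of the 2 kinds did not overlap for 34 members (70.8%, beside 67.6% overall). In these bulk samples fewer cells of a type and less RNA per cell cannot be told apart, and each p-value rests on the spread among 6 samples, which may be technical.

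**Figure D1:**
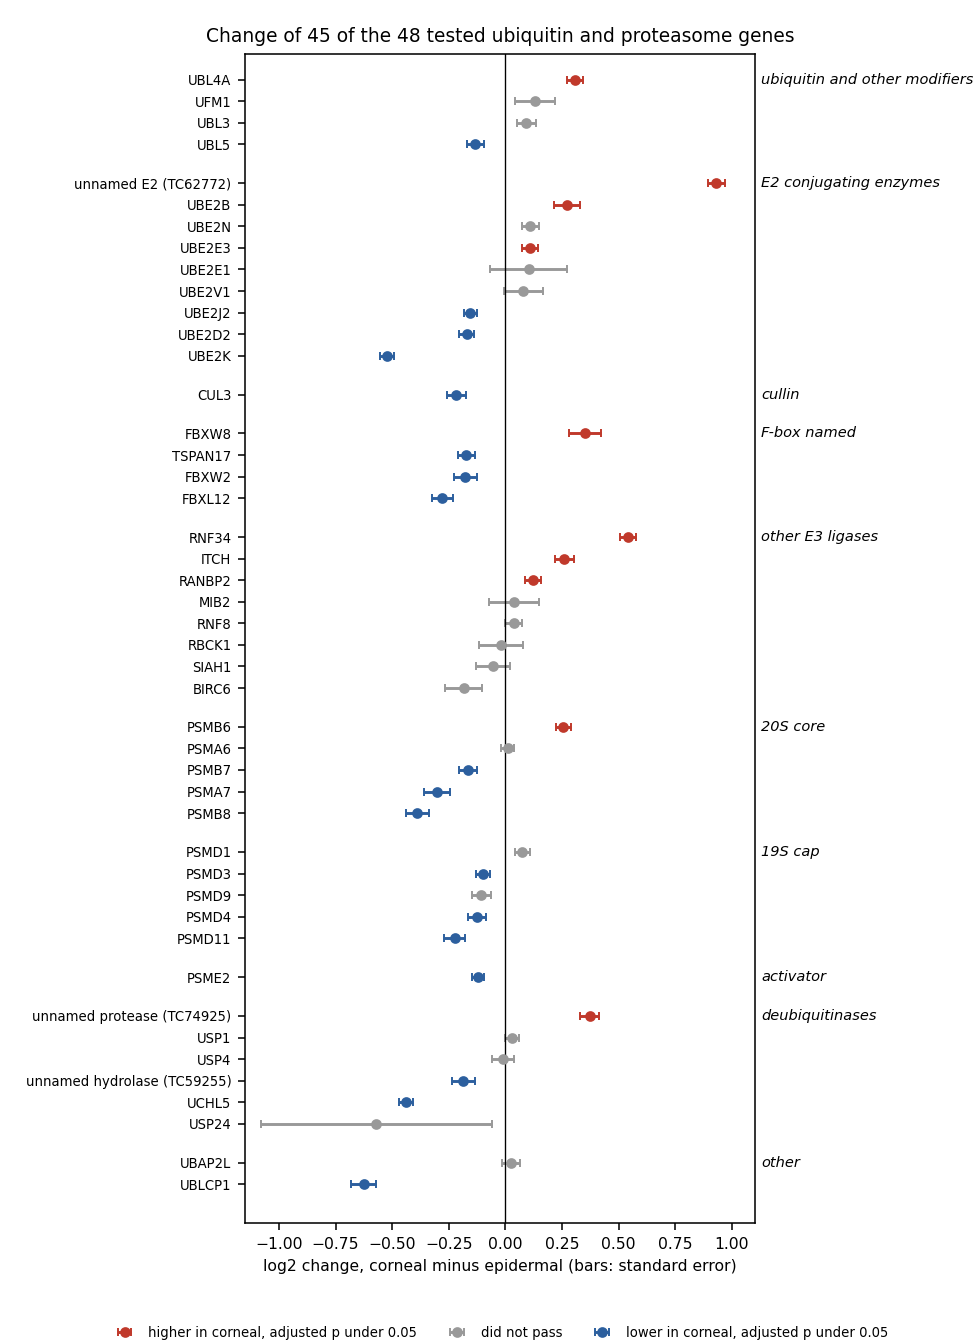
Fitted log2 change (corneal minus epidermal, x axis) of 45 of the 48 tested ubiquitin and proteasome genes, grouped by role, with bars for the standard error (3 arrays a kind). Red points are genes called higher, blue points genes called lower, and grey points did not pass. The core and cap genes lie mostly left of 0, and the changes span -0.63 to 0.93.

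The direction of the smaller changes depends on how arrays are scaled. With no scaling between arrays the median of all features shifted by -0.17, and higher calls made up 22.4% of all calls instead of 44.4%. Among the members, 3 were then called higher and 22 lower. The changes below are therefore relative to the 75th percentile of each array, and a shift common to all genes of a sample cannot be read from them.

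**Figure D2:**
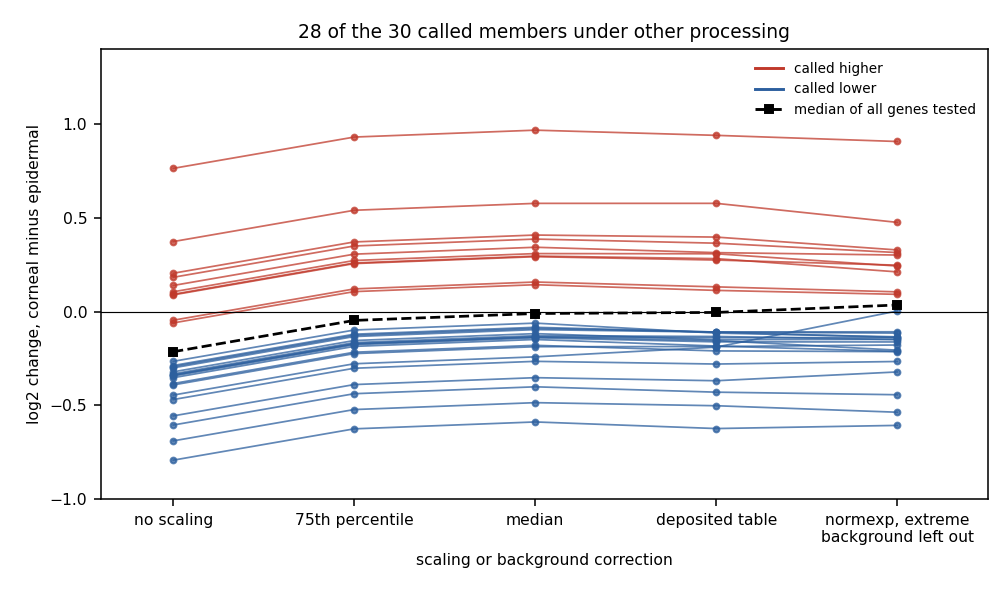
Fitted log2 change (y axis) of 28 of the 30 called members under 5 ways of scaling or background correction (x axis), 1 line a gene, red for those called higher and blue for those called lower, with the median of all genes tested as black squares. Without scaling every line sits lower, together with the black one, and the lines then span -0.79 to 0.76.

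By symbol, 11 genes were grouped with the core and cap of the 26S proteasome. Of these 10 were tested: 1 rose, 6 fell and 3 did not pass, with a median change of -0.12. Over all features 26.4% were called higher and 33.1% lower, with a median of -0.05. The difference between these core and cap genes and all features was not tested. The falls of PSMD3 and PSMD4 were lost with centring on the median and when most single arrays were left out. The changes of the 10 tested genes stayed within -0.39 to 0.26. Within the 20S core the catalytic subunits did not move as one.

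PSMB8, the catalytic subunit that interferon induces and that replaces the chymotrypsin-like subunit in the immunoproteasome, read -0.45, -0.42 and -0.55 in epidermal replicates 1 to 3. It read -0.92, -0.85 and -0.82 in corneal replicates 1 to 3. Every corneal array lay below every epidermal one, and the gene fell by 0.39 ± 0.05 (SE), 1.31-fold (limma adjusted p = 0.00118). PSMB7, the trypsin-like catalytic subunit, read 4.31, 4.37 and 4.29 in the epidermal and 4.12, 4.20 and 4.16 in the corneal samples. Its groups did not overlap either, and it fell by 0.17 ± 0.04 (limma adjusted p = 0.0124). The overlapping PSMB7 probes printed above gave -0.14 and -0.13 (limma adjusted p = 0.0183 and 0.014), the same direction from largely shared bases.

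PSMB6, the caspase-like catalytic subunit, went the other way. Its epidermal levels were 4.89, 4.93 and 4.91 and its corneal levels 5.21, 5.17 and 5.13. It rose by 0.26 ± 0.03, 1.19-fold (limma adjusted p = 0.00114), and was the only one of the 10 tested core and cap genes called higher. Without scaling between arrays its change was 0.09 (limma adjusted p = 0.313). The outer-ring subunit PSMA7 read -0.43, -0.58 and -0.57 in epidermal and -0.86, -0.76 and -0.86 in corneal samples. It fell by 0.30 ± 0.06, 1.23-fold (limma adjusted p = 0.00524). PSMA6, another outer-ring subunit, overlapped between the kinds, at 4.29 to 4.30 and 4.28 to 4.33. Its change of 0.0094 ± 0.03 did not pass (limma adjusted p = 0.79). PSMA5 was well above background on 2 epidermal arrays and no corneal array, was not tested and has no fold: it read -6.43, -6.85 and -6.28 against -7.15, -8.29 and -8.34.

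Of 5 genes grouped with the 19S cap by symbol, among them the assembly chaperone PSMD9, none was called higher and 3 were called lower. PSMD11, a subunit of the lid, had epidermal levels of -1.01, -1.13 and -0.99 and corneal levels of -1.24, -1.28 and -1.29. It was the largest mover of the cap and fell by 0.22 ± 0.05, 1.17-fold (limma adjusted p = 0.00744). PSMD3, also of the lid, read 4.65, 4.72 and 4.69 against 4.59, 4.60 and 4.57. That difference of -0.10 ± 0.03 passed narrowly (limma adjusted p = 0.0387). PSMD4, a ubiquitin receptor of the cap, read -0.50, -0.60 and -0.58 against -0.72, -0.69 and -0.65, a change of -0.13 ± 0.04 (limma adjusted p = 0.0382). Its other probe, which shares a run of 58 bases with the first, changed by -0.12 (limma adjusted p = 0.0165). Both calls are weak. That of PSMD3 was lost when any 1 array other than epidermal replicate 1 was left out (limma adjusted p from 0.0836 to 0.117), and that of PSMD4 when any 1 other than epidermal replicate 2 was (0.0503 to 0.109). Centring on the median ended both calls (limma adjusted p = 0.126 and 0.132).

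PSMD1, a scaffold subunit of the cap's base, and PSMD9, a chaperone of its assembly, did not pass. PSMD1 read -0.18, -0.18 and -0.25 in epidermal and -0.12, -0.13 and -0.14 in corneal samples, a change of 0.07 ± 0.03 (limma adjusted p = 0.102), which became -0.09 without scaling. Its groups did not overlap. PSMD9 read 1.51, 1.37 and 1.41 against 1.33, 1.32 and 1.32, a change of -0.11 ± 0.04 (limma adjusted p = 0.0793). Without epidermal replicate 2 that adjusted p was 0.0432.

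PSME2, a subunit of the interferon-induced activator that opens the core, had 2 member probes. The brighter one read 3.72, 3.71 and 3.68 in epidermal and 3.57, 3.58 and 3.59 in corneal samples, without overlap. It fell by 0.12 ± 0.03 (limma adjusted p = 0.0122), and its partner, which shares a run of 58 bases with it, by 0.13 (limma adjusted p = 0.015). Another PSME2 probe, which the rule did not pick, changed by -0.13 ± 0.06 (limma adjusted p = 0.094). With centring on the median the adjusted p of the brighter probe was 0.0500457, just above the threshold.

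Both PSMB8 and PSME2 belong to the genes that interferon induces, and both were lower in corneal cells. Of the other interferon-induced genes listed, 5 of 13 had a probe given their symbol and 4 were tested, of which 3 rose and 1 did not pass. MX1, an antiviral GTPase, changed by 1.27 ± 0.03 and MX2 by 1.66 ± 0.05, both higher in corneal cells. The transcription factor IRF1 changed by -0.18 ± 0.06 (limma adjusted p = 0.0547). The mean level of these 4 genes was -1.25 to -1.18 on the epidermal and -0.53 to -0.44 on the corneal arrays. PSMB8 and PSME2 on the one hand and MX1 and MX2 on the other thus had changes of opposite sign in these samples, and that contrast was not tested.

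**Figure D3:**
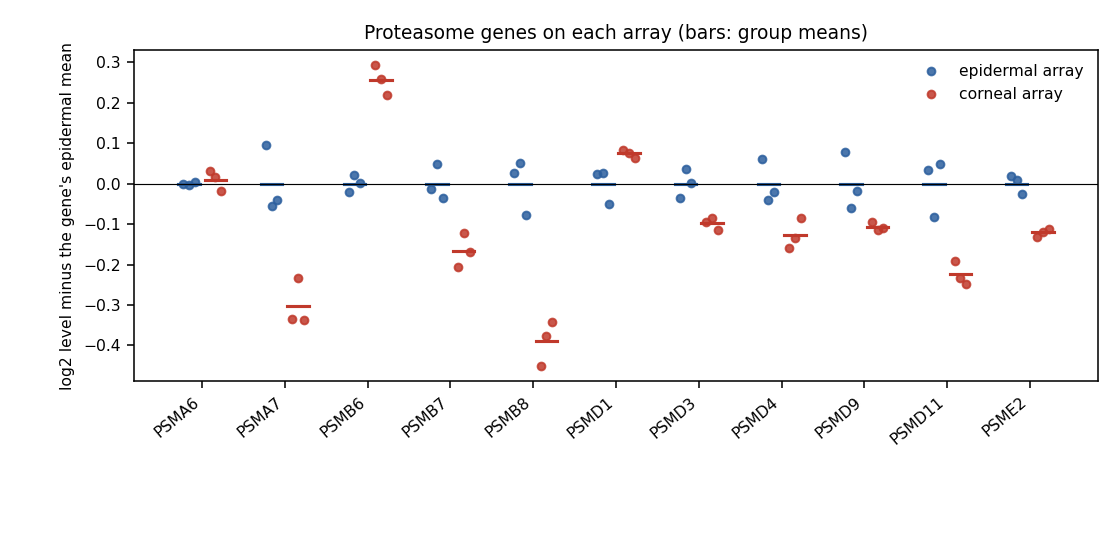
Level of each tested proteasome gene on each array, as log2 units from the gene's own epidermal mean (y axis), for the core, cap and activator genes (x axis), with epidermal arrays in blue, corneal arrays in red and bars at the group means. The corneal mean of PSMB6 stands highest, at 0.26, and those of PSMB8 and PSMA7 lie lowest, at -0.39 and -0.30.

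Of 6 genes of ubiquitin itself and of its relatives, 1 was called higher, 2 lower and 3 were not called, with a median change of 0.05. UBL4A, part of the complex that guides tail-anchored membrane proteins, read 2.96, 2.95 and 2.95 in epidermal and 3.32, 3.21 and 3.25 in corneal samples. It rose by 0.31 ± 0.04, 1.24-fold (limma adjusted p = 0.000842), while without scaling its change of 0.14 did not pass. BAG6, its partner in that complex, also rose, by 0.28 ± 0.03 (limma adjusted p = 0.000779). UBL5, a modifier-like protein of the splicing machinery, read 5.15, 5.15 and 5.11 against 5.06, 4.99 and 4.96 and fell by 0.13 ± 0.04 (limma adjusted p = 0.0237). That call was lost without epidermal replicate 1 or 2 or corneal replicate 2 or 3 (limma adjusted p from 0.0602 to 0.0766), and with centring on the median (0.0627). UFM1, a modifier attached at the endoplasmic reticulum, changed by 0.13 ± 0.09 (limma adjusted p = 0.246), and the membrane-anchored UBL3 by 0.09 ± 0.04 (limma adjusted p = 0.118).

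Among the E2 enzymes 3 of 9 rose, 3 fell and 3 did not pass. TC62772, a transcript described only as a ubiquitin carrier protein, read 0.62, 0.53 and 0.60 in epidermal and 1.55, 1.51 and 1.49 in corneal samples. Its corneal arrays stood far above its epidermal ones, and the rise of 0.93 ± 0.04, 1.91-fold, was the largest of all 48 members (limma adjusted p = 1.15e-05). The adjusted p passed under every alternative run. UBE2K, an E2 that builds chains which direct proteins to the proteasome, read 4.27, 4.33 and 4.30 against 3.79, 3.76 and 3.78. It fell by 0.52 ± 0.03, 1.44-fold (limma adjusted p = 4.51e-05).

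UBE2D2, a partner of many ligases, read 2.46, 2.51 and 2.48 in epidermal and 2.28, 2.30 and 2.35 in corneal samples. Without overlap, it fell by 0.17 ± 0.03 (limma adjusted p = 0.00606), and its shifted probe by 0.21 (limma adjusted p = 0.00483). UBE2J2, an E2 of the endoplasmic reticulum's membrane, read 0.86, 0.81 and 0.85 against 0.70, 0.67 and 0.69 and fell by 0.15 ± 0.03 (limma adjusted p = 0.00614). UBE2B, which tags chromatin proteins and acts in tolerance of DNA damage, rose instead. It read -1.04, -1.06 and -0.92 in epidermal and -0.81, -0.69 and -0.69 in corneal samples, a rise of 0.27 ± 0.06, 1.21-fold (limma adjusted p = 0.0086). Without scaling its change was 0.11 and did not pass.

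UBE2E3, an E2 of the UBE2E group, read 1.76, 1.73 and 1.75 against 1.90, 1.84 and 1.81, a rise of 0.11 ± 0.03 (limma adjusted p = 0.0417). The call is weak: it was lost when any 1 array other than corneal replicate 3 was left out (limma adjusted p from 0.0713 to 0.106), and without scaling the change was -0.06. UBE2N and UBE2V1 together make the chains used in signalling. UBE2N read 0.78, 0.70 and 0.67 against 0.83, 0.84 and 0.81, a change of 0.11 ± 0.04 just short of the threshold (limma adjusted p = 0.0525). Its other member probe, near background, changed by -0.18 ± 0.22 (limma adjusted p = 0.495). UBE2V1 changed by 0.08 ± 0.09 (limma adjusted p = 0.461) and UBE2E1 by 0.10 ± 0.17 (limma adjusted p = 0.628), with overlap in both.

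The genes grouped as ligases, with the cullin and those described as F-box proteins, gave no common direction. Of 14 tested, 5 rose, 4 fell and 5 did not pass, with a median change of 0.0081. The 4 falls include that of TSPAN17, a tetraspanin grouped here by its description alone. Of 5 genes with an F-box in the description 2 rose and 3 fell, the single cullin fell, and of 9 other ligase genes 8 were tested, of which 3 rose, none fell by limma's test at the adjusted threshold, and 5 did not pass. CUL3, the scaffold of ligases whose adaptors carry a BTB domain, read 2.05, 2.16 and 2.13 in epidermal and 1.94, 1.85 and 1.90 in corneal samples. It fell by 0.22 ± 0.04, 1.16-fold (limma adjusted p = 0.00712), without overlap. The list of other ligase genes holds partners of cullins. KEAP1, the CUL3 adaptor that holds down the antioxidant factor NRF2, read 1.34, 1.33 and 1.35 against 1.99, 1.93 and 1.95 and rose by 0.62 ± 0.03. RBX1, the RING subunit of most cullin ligases, read 2.32, 2.35 and 2.34 against 2.97, 3.01 and 2.97 and rose by 0.65 ± 0.03. RNF7, its homologue, rose by 0.47 ± 0.04. Conversely SKP1, which joins F-box proteins to their cullin, fell by 0.25 ± 0.03, the CUL3 adaptor SPOP by 0.31 ± 0.07, the p53 ligase MDM2 by 0.61 ± 0.09 and ANAPC2, the cullin-like subunit of the anaphase-promoting complex, by 0.67 ± 0.13. Each of these 7 genes passed limma's test, with adjusted p from 1.75e-05 (RBX1) to 0.0146 (SPOP). In all, 10 of 46 listed genes had a probe given their symbol and were tested. Of these 3 rose, 4 fell and 3 did not pass, with a median change of -0.16. The genes that did not pass were the cullin adaptors DDB1, at -0.09 ± 0.03 (limma adjusted p = 0.0678), and VHL, at -0.23 ± 0.28 (limma adjusted p = 0.503), and the HECT ligase HUWE1, at 0.03 ± 0.06 (limma adjusted p = 0.738).

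FBXW8, a substrate receptor with WD40 repeats, read -2.13, -1.89 and -2.08 in epidermal and -1.62, -1.71 and -1.73 in corneal samples. It rose by 0.35 ± 0.07, 1.27-fold (limma adjusted p = 0.00742), and its change of 0.18 without scaling did not pass. FBXL12, a receptor with leucine-rich repeats, read -4.22, -4.26 and -4.15 against -4.45, -4.45 and -4.56 and fell by 0.28 ± 0.05, 1.21-fold (limma adjusted p = 0.00397). With normexp background correction, spots of extreme background left out, the change was 0.0033 ± 0.04 (limma adjusted p = 0.951), so the fall was not seen there. With the deposited values it was -0.19 (limma adjusted p = 0.0287). The call thus depends on the background correction.

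FBXW2, another WD40 receptor, read 0.17, 0.04 and -0.00 in epidermal and -0.11, -0.12 and -0.09 in corneal samples, a fall of 0.18 ± 0.05 (limma adjusted p = 0.0274). That call was lost without epidermal replicate 2 or any 1 corneal replicate (limma adjusted p from 0.0505 to 0.0787), and with centring on the median (0.0683). TSPAN17, a tetraspanin that is also described as an F-box protein, read -0.67, -0.75 and -0.76 against -0.88, -0.93 and -0.89. It fell by 0.17 ± 0.04 (limma adjusted p = 0.00925), with no overlap. FBXO32, the muscle atrophy ligase component, was not picked by the rule and changed by -0.16 ± 0.07 (limma adjusted p = 0.105).

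RNF34, a RING ligase known for acting on caspases and p53, read -1.85, -1.83 and -1.89 in epidermal and -1.27, -1.35 and -1.32 in corneal samples. It rose by 0.54 ± 0.04, 1.45-fold (limma adjusted p = 9.14e-05), the largest rise of a member with a symbol. ITCH, a HECT ligase whose loss in mice gives itching and inflamed skin, read -2.75, -2.65 and -2.72 against -2.40, -2.44 and -2.50. It rose by 0.26 ± 0.04 (limma adjusted p = 0.00305), and by 0.09 without scaling, which did not pass. RANBP2, a nuclear pore protein with SUMO ligase activity, read 0.01, 0.01 and 0.03 against 0.16, 0.08 and 0.17, a rise of 0.12 ± 0.03 (limma adjusted p = 0.0265). The call was lost without any 1 array other than corneal replicate 2 (limma adjusted p from 0.0596 to 0.0867), and without scaling the change was -0.05. MIB2, RNF8, RBCK1 and SIAH1 changed by 0.04, 0.04, -0.02 and -0.05 and BIRC6 by -0.18 (limma adjusted p = 0.1), none past the threshold. RNF128 was not well above background on any array.

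Deubiquitinases rose in 1 of 6 genes, fell in 2 and did not pass in 3. UCHL5, which sits on the proteasome cap and trims ubiquitin from arriving proteins, read 1.67, 1.73 and 1.69 in epidermal and 1.26, 1.28 and 1.23 in corneal samples. It fell by 0.44 ± 0.03, 1.35-fold (limma adjusted p = 0.000119), a larger step than that of any tested core or cap subunit. TC59255, described as a ubiquitin hydrolase and without a symbol, read 1.02, 0.86 and 0.94 against 0.72, 0.80 and 0.75 and fell by 0.19 ± 0.05 (limma adjusted p = 0.0232). That call was lost without epidermal replicate 3, corneal replicate 1 or corneal replicate 3 (limma adjusted p from 0.064 to 0.0711), and with centring on the median (0.0705).

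TC74925, described as a ubiquitin-specific protease, read 2.36, 2.48 and 2.40 in epidermal and 2.75, 2.79 and 2.81 in corneal samples. Its groups did not overlap, and it rose by 0.37 ± 0.04, 1.29-fold (limma adjusted p = 0.000743). Runs of at least 14 bases of its probe, printed above, also occur in 5 probes of other genes, more than for any other member probe (the next, PSMA7, had 3). Binding of other transcripts to this probe was not tested, so which transcript its rise reflects is not settled. USP1, which deubiquitinates DNA repair proteins, and USP4 changed by 0.03 and -0.01 (limma adjusted p = 0.469 and 0.848). USP24 was bright enough to pass the background limit on 2 epidermal arrays and on 1 of the corneal ones, with levels from -6.49 to -4.55, and its change of -0.57 ± 0.51 did not pass (limma adjusted p = 0.375).

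UBLCP1, a phosphatase that binds and regulates the nuclear proteasome through its ubiquitin-like domain, showed the largest called fall of the 48. It read 0.84, 1.00 and 1.02 in epidermal and 0.35, 0.30 and 0.32 in corneal samples. No corneal array came near an epidermal one, and the gene fell by 0.63 ± 0.06, 1.54-fold (limma adjusted p = 0.00029). UBAP2L, a ubiquitin-associated protein of stress granules, changed by 0.02 (limma adjusted p = 0.617).

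**Figure D4:**
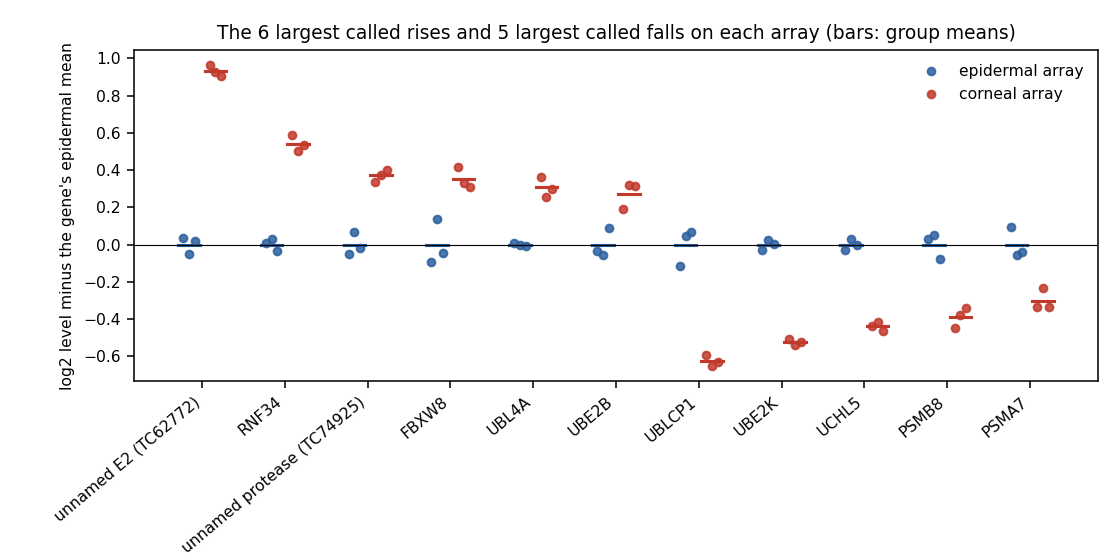
Level on each array of the 6 members with the largest called rises and the 5 with the largest called falls (x axis), as log2 units from the gene's own epidermal mean (y axis), with epidermal arrays in blue, corneal arrays in red and bars at the group means. In all 11 genes the kinds do not overlap, and TC62772 stands apart at 0.93 above its epidermal mean.

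Genes that deliver substrates to the proteasome or control its genes gave no common direction. Of 23 listed genes 5 had a probe given their symbol and were tested, of which 2 rose, 1 fell and 2 did not pass. Beside BAG6, the chaperone cofactor BAG1 rose by 0.20 ± 0.06 (limma adjusted p = 0.0334). The autophagy receptor SQSTM1 read 5.32, 5.36 and 5.30 in epidermal and 5.10, 5.07 and 5.09 in corneal samples and fell by 0.24 ± 0.03 (limma adjusted p = 0.00101). VCP, the ATPase that extracts ubiquitinated proteins, changed by -0.00060 ± 0.03 (limma adjusted p = 0.985) and the shuttle factor UBQLN1 by -0.04 ± 0.04 (limma adjusted p = 0.393). Many substrates of this system are cell cycle regulators. Of 22 listed cell cycle genes 6 were tested, of which 5 rose and 1 fell, with a median change of 0.70. Over all features 26.4% were called higher and 33.1% lower, and the difference was not tested. CDK1 passed narrowly (limma adjusted p = 0.0495). The mean level of these 6 genes was -2.08 to -2.06 on the epidermal and -1.51 to -1.26 on the corneal arrays. AURKA, a mitotic kinase, read -3.50, -3.42 and -1.82 in corneal replicates 1 to 3. The part of the cell cycle in the members' changes was not tested. Probes named UBE2C, SKP2, CUL1, UCHL1, PSMB10, PSME1, SUMO2 or SUMO3, which were to be described, and genes of E1 enzymes were not analysed here.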

How the data were processed

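Per the labels' protocols, each sample's Cy3-labelled RNA was put on 1 Agilent sheep array. The submitters' processing notes name Agilent Feature Extraction 10.7. The authors deposited linear intensities, with background subtracted per the file headers. The authors' deposited log2 table (each column's median 7.23, quantile normalized by its values, genes not centred) served as an alternative.

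From the processed signal, log2 minus each array's 75th percentile was taken. Control spots and outlier spots were left out and spots of a probe averaged. Probes well above background on at least 3 of 6 arrays were kept, the brightest standing for its gene. limma 3.58.1 (R 4.3.3, lmFit and eBayes, no block) compared the kinds, with Benjamini-Hochberg adjustment over 11437 features and a threshold of 0.05. The fit was tested on simulated data with independent noise and far fewer changed genes than were called here. That test does not show how many calls here are right. Symbols came from the array's annotation and RefSeq (ARS-UI_Ramb_v3.0, names alone): of member probes 6 matched by accession, 6 by symbol and 42 by description, and 3 had none. Of all 15008 gene probes, 767 were named by accession, 528 by symbol, 18 by synonym and 64 by description, and the rest had no symbol. Naming by description was done mainly for members, so a listed gene without a named probe may still be on the array. Genome positions were not used here. Named members were the 10 largest called rises and falls, up to 3 called members of each role in each direction, and all core and cap genes. The other members' values are given too, except for a few members that are counted but not reported here. Members and lists were chosen with earlier results of these data known. Alternatives covered scaling, background, the filter, the probe used, the replicate block and each array left out.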

Additional observations from a re-analysis of the deposited data

How the results depend on the processing

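With no scaling between arrays, 3 members were called higher and the members' median change was -0.18. Changes turned sign there for PSMA6 (-0.16), PSMD1 (-0.093), RANBP2 (-0.046) and UBE2E3 (-0.060). With normexp on all spots, 404 features, 1 member higher and 0 lower passed (limma), with signs turned for FBXW8 (-0.031), ITCH (-0.33), PSMB7 (0.091), PSMD3 (0.11), PSMD9 (0.040), PSME2 (0.12) and UBL5 (0.11). Epidermal replicate 1 holds 8 spots of extreme background, and with such spots left out 14 members were called higher and 18 lower, and the turned signs were FBXL12 (0.0033) and PSMA6 (-0.0060). With each probe tested on its own the median was -0.11, since genes with several probes then count several times. Leaving out 1 array gave 5989 to 6497 calls in all, 9 to 10 members higher, 14 to 18 lower and a median of -0.03 to 0.0022. PSMA6 ranged from -0.0016 (without corneal replicate 1) to 0.024. Replicate numbers did not pair the samples (correlations 0.02, -0.02 and 0.04), and with the replicate block 6100 features, 8 members higher and 14 lower were called. Centring on the median gave 13 higher and 13 lower. Of the 28 called members described 14 kept direction and call under every alternative except normexp on all spots. The cause of the other shifts was not tested. The number of arrays limits the precision, and USP24, PSMA5 and RNF128 lay near background.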
